A study of Drosophila melanogaster with 2 samples.

Results

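The genes examined here are 9 genes of the trithorax group and of the Brahma chromatin-remodelling complex: brm, mor, osa, Snr1, trx, ash1, ash2, tara and Alh. They were selected on measured values, namely the peaks of CG4404 found in earlier results of these data at several of them, so their peaks and signals are given as a description and no test was made of them. All 9 were matched by symbol among 13968 protein-coding genes, and every peak whose summit lay in the gene or within 2000 bp of either end was counted at that gene. Chromatin immunoprecipitation with sequencing (ChIP-seq) had been performed with an antibody to GFP on whole Drosophila melanogaster embryos of 0 to 4 hours from the strain CG4404-GFP, which carries an inserted CG4404-eGFP fusion. There were 2 biological replicates of this 1 group, and no wild-type, mock or input sample was analysed here. The protein mapped is therefore the tagged form. In whole embryos, a peak held by few cells and a weaker one held by all cells cannot be told apart.

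Trithorax group genes were found in Drosophila as genes that keep homeotic genes active, in opposition to the Polycomb group. Their products include the Brahma complex, which moves nucleosomes with the energy of ATP, and enzymes that methylate histone H3. In the early embryo much of this machinery is supplied by the mother while the zygotic genome is being switched on.

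Printed below are the sequences at the summits of the 8 strongest peaks at these genes. Those at a peak at the promoter of mor and a weak peak in a coding exon of osa are added for contrast. Each is 151 bases of dm6 on the plus strand, centred on the summit and read from the Release 6 genome of RefSeq, with runs of 8 or more A or T in capitals. They lie at chr3L:19590540-19590690 (ash1 site 1), chr3L:15982945-15983095 (brm site 1), chr3R:17700519-17700669 (osa site 1), chr3R:7108917-7109067 (Alh site 1), chr3R:17704347-17704497 (osa site 2), chr3R:14283784-14283934 (trx site 1), chr3R:16236892-16237042 (tara site 1), chr3R:14278011-14278161 (trx site 2), chr3R:15972969-15973119 (mor site 2) and chr3R:17695071-17695221 (osa site 3).
ash1 site 1: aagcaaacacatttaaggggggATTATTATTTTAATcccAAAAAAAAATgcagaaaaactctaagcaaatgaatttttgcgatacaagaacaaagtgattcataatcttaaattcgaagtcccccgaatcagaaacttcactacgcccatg
brm site 1: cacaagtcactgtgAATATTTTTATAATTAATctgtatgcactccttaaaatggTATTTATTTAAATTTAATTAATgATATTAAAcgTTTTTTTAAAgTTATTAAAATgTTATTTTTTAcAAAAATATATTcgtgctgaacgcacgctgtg
osa site 1: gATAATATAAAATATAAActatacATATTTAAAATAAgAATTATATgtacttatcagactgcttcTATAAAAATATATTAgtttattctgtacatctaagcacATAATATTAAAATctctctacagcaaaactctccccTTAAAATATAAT
Alh site 1: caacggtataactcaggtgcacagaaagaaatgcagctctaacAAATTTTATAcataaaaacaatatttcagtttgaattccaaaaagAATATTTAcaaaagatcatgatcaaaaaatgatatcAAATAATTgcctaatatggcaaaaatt
osa site 2: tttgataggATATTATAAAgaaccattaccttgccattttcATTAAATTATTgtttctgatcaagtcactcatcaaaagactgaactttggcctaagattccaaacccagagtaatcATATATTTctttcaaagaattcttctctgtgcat
trx site 1: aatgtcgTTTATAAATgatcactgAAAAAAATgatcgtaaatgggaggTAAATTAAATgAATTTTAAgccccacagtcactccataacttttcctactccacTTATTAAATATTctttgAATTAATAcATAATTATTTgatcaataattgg
tara site 1: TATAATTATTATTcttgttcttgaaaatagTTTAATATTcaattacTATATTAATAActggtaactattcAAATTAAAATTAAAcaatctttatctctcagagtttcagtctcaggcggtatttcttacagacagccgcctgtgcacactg
trx site 2: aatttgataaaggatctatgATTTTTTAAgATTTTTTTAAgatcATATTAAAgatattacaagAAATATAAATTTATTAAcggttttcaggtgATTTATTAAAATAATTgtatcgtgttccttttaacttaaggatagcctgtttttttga
mor site 2: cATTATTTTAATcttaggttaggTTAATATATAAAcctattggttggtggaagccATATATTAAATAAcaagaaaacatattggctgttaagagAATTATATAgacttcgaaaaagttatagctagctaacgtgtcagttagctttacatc
osa site 3: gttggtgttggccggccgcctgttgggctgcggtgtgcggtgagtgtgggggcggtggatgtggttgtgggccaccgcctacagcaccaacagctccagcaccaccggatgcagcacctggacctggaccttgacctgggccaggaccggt
The window of brm site 1 held 7 such runs, which took up 89 of its 151 bases, and that of osa site 1 held 6 runs over 78 bases. The window of ash1 site 1, which had the highest signal, held 2 runs over 24 bases, and that of osa site 3 held none. Runs of A and T therefore differed widely in number among strong peaks.

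Peaks were taken from 2 kinds of list that the authors deposited. A ranked list holds every candidate peak with its irreproducible discovery rate (IDR), a measure of how likely a peak is to fail to come back in another call, and a thresholded list holds the peaks retained by the authors. The larger of the thresholded lists made from the pooled replicates held 3892 peaks, all with an IDR of 0.01 or less, with a median signal of 117 and quartiles of 80.3 and 201. Signal is the peak caller's own value, on a scale left unstated by the sources used here, and values are compared within 1 list only. The thresholded lists held 2982 peaks for replicate 1 and 2539 for replicate 2, and the read depth was not used here.

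Of the 9 genes, 8 had a peak of the larger pooled list, 13 peaks in all, and only mor had none. Among protein-coding genes, the same rule called 28.2%. The windows of the 9 genes are long, 5.8 to 38.7 kb with a median of 16.8 kb, against a median of 6.2 kb for protein-coding genes. Among genes with windows at least as long as that of Snr1, the shortest of the 9, 8 of 9 against 35.4% had a peak, and among those with windows at least as long as that of brm, the median of the 9, the counts were 5 of 5 against 53.0%. In each replicate's own thresholded list, 7 of the 9 genes had a peak in both, against 18.4% of protein-coding genes. A thresholded summit within 500 bp of a transcription start site (TSS) of the gene itself was found for 2 of the 9, brm and Alh, against 14.2% of protein-coding genes. Because the genes were selected on these peaks, nothing is read from these shares. The 9 windows span 185.0 kb and held 70.3 thresholded peaks per Mb, against 27.9 per Mb over the chromosome arms.

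A further 10 peaks at 4 of the genes passed an IDR of 0.01 in the pooled ranked list but were in none of the 4 thresholded lists used here. With them, all 9 genes had a passing peak, against 28.5% of protein-coding genes, and 23 passing peaks lay at the 9 genes. The 9 windows held 217 ranked peaks in all. Just inside the threshold lay tara site 7, with an IDR of 0.0082, and the ash2 peak, with 0.0076. Among peaks that did not pass in the pooled ranking, the highest signals were 81.3 at tara, 62.4 at trx and 60.3 at mor. The passing peaks are numbered here within each gene by falling signal and called sites. Of the 13 thresholded sites, 6 had a signal above the upper quartile of their list and 2 below the lower quartile. A passing peak of signal 400 or more was found at 6 of the 9 genes, namely brm, osa, trx, ash1, tara and Alh, against 4.08% of protein-coding genes. At tara and Alh these peaks were in the ranked list only, and that of ash1 lay past its 3′ end. The 4.08% covers windows of every length. Because the genes were selected on these peaks, nothing is read from it or from the 28.5%.

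**Figure D1:**
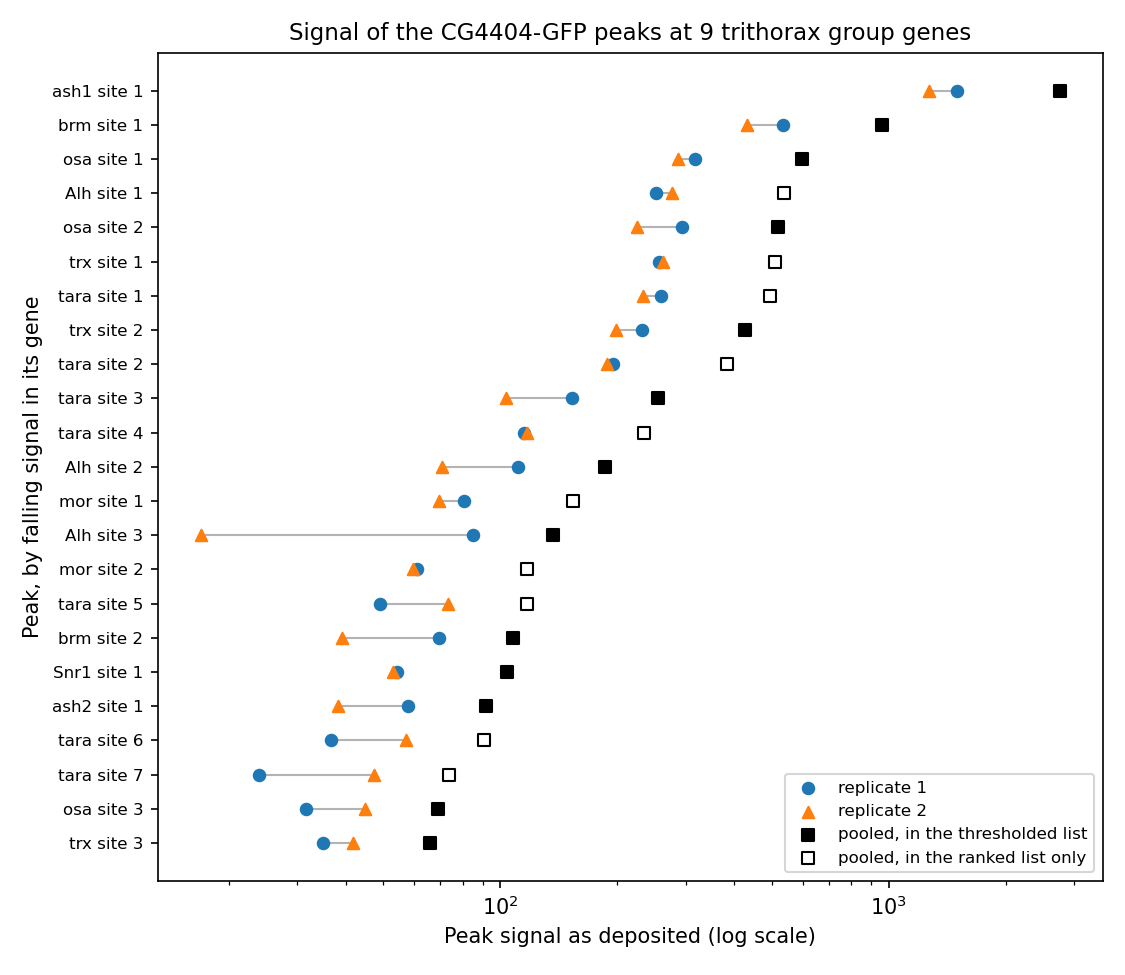
Deposited signal (log scale) of the 23 sites at the 9 genes in the pooled ranking (squares, filled where the site is in the larger thresholded list and open where it is in the ranked list only) and in the ranked list of each replicate (circles and triangles). ash1 site 1 stands highest in all of these at 2755 pooled, and the widest gap between replicates is at Alh site 3.

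Among the genes of the Brahma complex, the strongest peak lay at brm (FBgn0000212), which encodes the ATPase of the complex. Site 1 (chr3L:15982857-15983164) had a signal of 961 in the pooled list, rank 46, with 534 in replicate 1 and 431 in replicate 2 (mean 482 ± 72.4, SD, n = 2). Its summit lay 151 bp upstream of the TSS of brm and 115 bp upstream of that of Arl1, which encodes a small GTPase of the Golgi, so the peak sits between divergent promoters. The summits of both replicates were 2 bp apart. Site 2 (chr3L:15977531-15977914, signal 108) lay in an intron 5126 bp downstream of the TSS, inside CG17029, a gene nested there. It had 69.5 in replicate 1, where it was thresholded, and 39.1 in replicate 2, where it was not.

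osa (FBgn0261885) encodes the large ARID-domain subunit that marks the BAP form of the complex, and its strong peaks lay deep inside the gene. Site 1 (chr3R:17700420-17700740) had a pooled signal of 597, with 318 in replicate 1 and 286 in replicate 2, 17756 bp downstream of the TSS. Site 2 (chr3R:17704285-17704539) had 519, with 294 and 224 in the same order, 13928 bp downstream. Both were in the thresholded lists of both replicates and both lay in the same intron of 8067 bp, 3828 bp apart. Site 1 was 147 bp upstream of the TSS of lncRNA:CR46036, and site 2 was inside lncRNA:CR46035. No passing peak lay at the promoter of osa. Site 3 (chr3R:17694954-17695337, signal 69.3) was the only one of the 23 sites in a coding exon, exon 12 (intronic in other transcripts), and was in neither replicate's thresholded list, with 31.7 in replicate 1 and 44.8 in replicate 2.

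The other Brahma complex subunits had weaker peaks. At mor (FBgn0002783), which encodes the scaffold subunit Moira, both passing peaks were in the ranked list only. Site 1 (chr3R:15974272-15974655, signal 154) had 80.5 in replicate 1 and 69.5 in replicate 2, 1551 bp upstream of the TSS and inside Hel89B. Site 2 (chr3R:15972852-15973235, signal 117) had 61.0 and 59.5 in the same order, and lay 131 bp upstream of the TSS of mor and 254 bp upstream of that of Hel89B, which encodes a Snf2-family ATPase. A further peak 805 bp upstream, with a signal of 59.3 in replicate 1's ranked list, passed an IDR of 0.01 in that list but not in the pooled one, and was not thresholded. Both mor sites had an IDR under 0.01 in each replicate's own ranked list as well. At Snr1 (FBgn0011715), the gene of the SNF5 subunit, the single peak (chr3R:5474537-5474920, signal 104; 54.1 in replicate 1 and 52.9 in replicate 2) lay 1975 bp past the end of the gene, just inside the window. It was 129 bp upstream of the TSSs of HDAC3, the gene of a histone deacetylase, and CG45100, and 170 bp upstream of that of Hcs, so it is counted at Snr1 by distance alone.

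**Figure D2:**
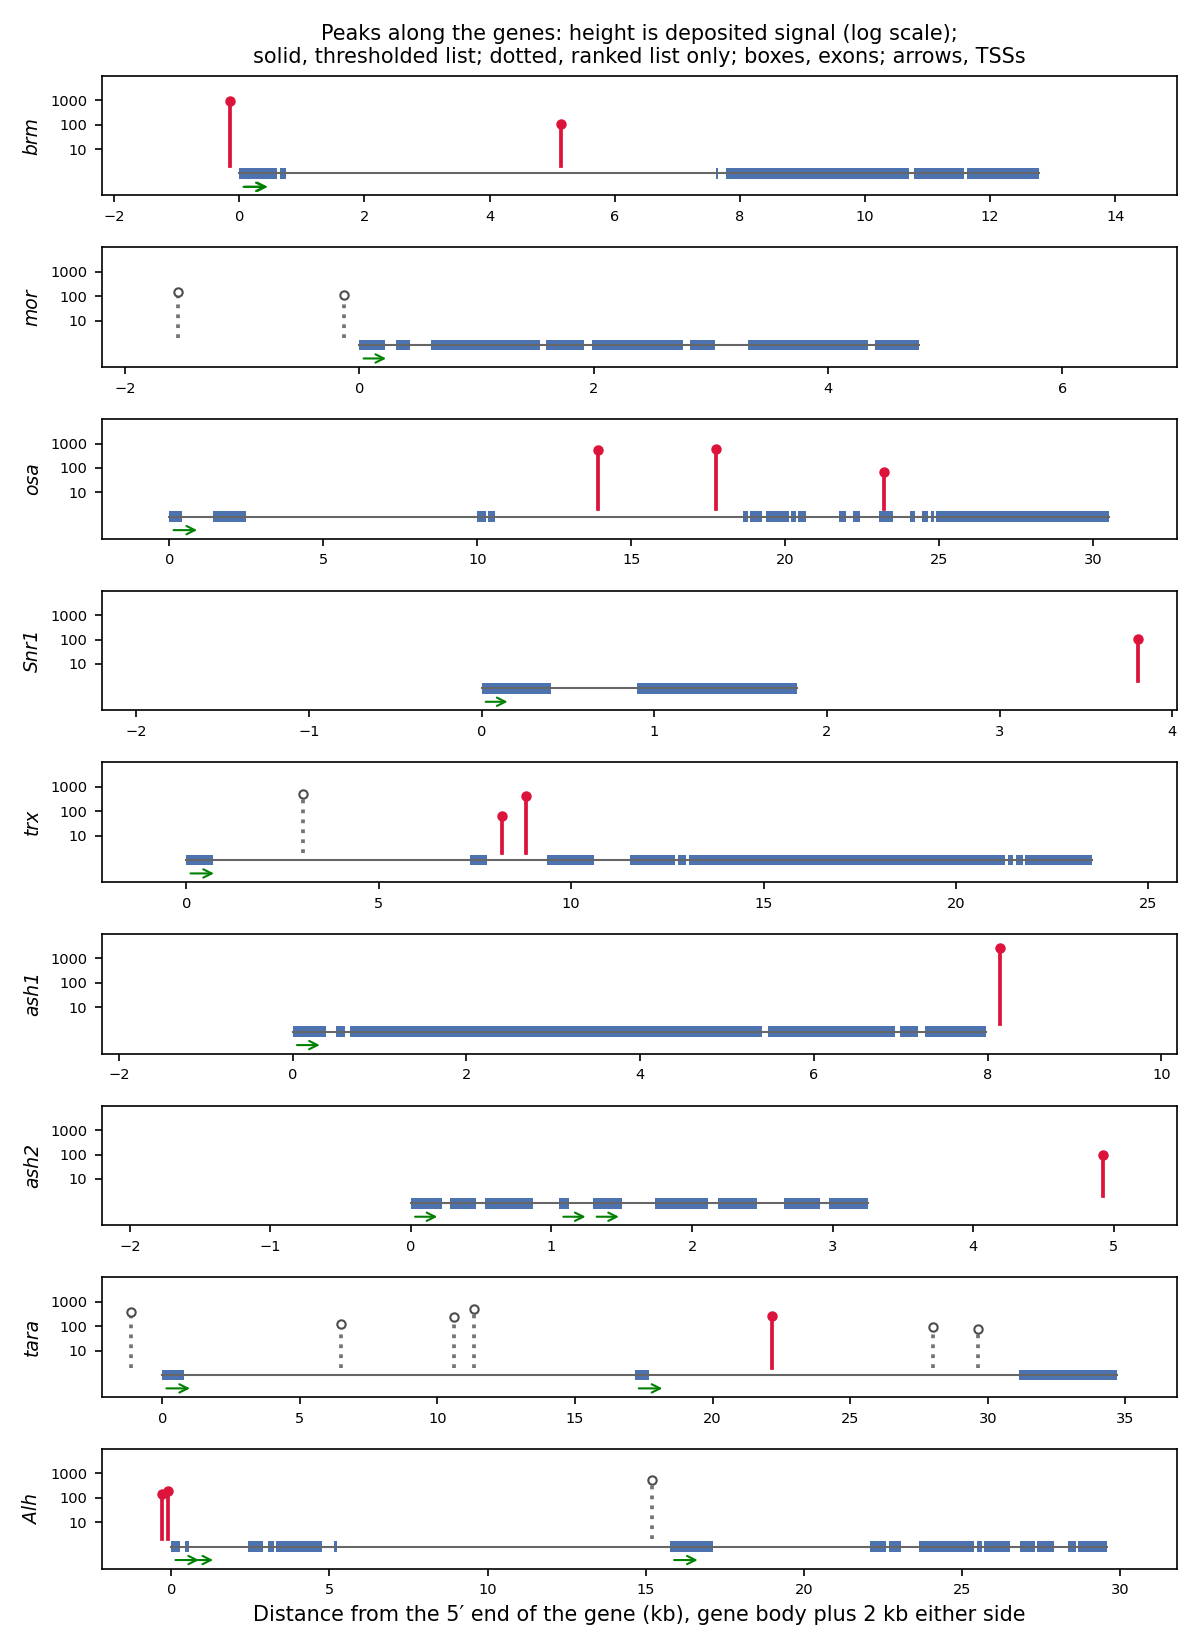
Position of each site as distance from the 5′ end of its gene in kb (gene body plus 2 kb either side), with height as pooled signal on a log scale; solid stems mark sites of the larger thresholded list, dotted stems sites in the ranked list only, boxes exons and arrows TSSs. The strong sites of osa and trx stand over introns, those of tara over an intron and, for site 2, upstream of the gene, that of brm at the promoter and that of ash1 past the 3′ end.

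Among the genes for histone methylation, trx (FBgn0003862) had strong peaks in its introns. The product of trx methylates histone H3 at lysine K4. Site 1 (chr3R:14283743-14284005) had a pooled signal of 510, with 256 in replicate 1 and 263 in replicate 2, 3044 bp downstream of the TSS. Although its IDR was at the lowest value the lists give in the pooled ranking and in both replicates' rankings, it was in none of the thresholded lists used here. Site 2 (chr3R:14277967-14278209) had 427, with 231 and 198 in the same order, 8817 bp downstream, and was thresholded in both replicates. Site 3 (chr3R:14278499-14278882, signal 65.9), 605 bp from site 2, was in neither replicate's thresholded list. A further thresholded peak of signal 107 lay 7 bp beyond the window upstream of trx and was not counted.

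The peak with the highest signal of the whole larger list was counted at ash1 (FBgn0005386), which encodes a methyltransferase for lysine K36 of histone H3. It had 2755 in the pooled list (chr3L:19590423-19590802), rank 1, with 1498 in replicate 1, where it ranked 2, and 1267 in replicate 2, where it ranked 1 (mean 1382 ± 163, SD, n = 2). Its summit lay 158 bp past the 3′ end of ash1, 8140 bp from its TSS, and 91 bp upstream of the TSS of CG14100. No other passing peak lay at ash1, and its own promoter had none. ash2 (FBgn0000139) encodes a subunit shared by the complexes that methylate lysine K4. Its single peak (chr3R:24654859-24655242, signal 91.6; 58.0 in replicate 1 and 38.3 in replicate 2) was 1675 bp past the end of the gene, 109 bp upstream of the TSS of CG6695 and 231 bp upstream of that of CG31125. It was thresholded in replicate 1 but not in replicate 2. The peaks counted at ash1, ash2 and Snr1 thus all lay at the promoters of neighbouring genes.

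tara (FBgn0040071), which encodes a SERTA-domain protein, had the most sites, 7 across the gene, of which only 1 was thresholded in the larger list. Site 1 (chr3R:16236813-16237091, signal 495) had 260 in replicate 1 and 234 in replicate 2. Site 2 (chr3R:16224385-16224610, signal 383) had 195 and 188, and site 3 (chr3R:16247749-16247895, signal 255) had 153 and 104, in the same order. Site 3 was the thresholded one. Site 2 was 1144 bp upstream of the first TSS, and all the other sites, site 3 included, lay in an intron that spans 30338 bp in its longest form. Site 4 (chr3R:16236220-16236393, signal 234) lay 704 bp from site 1 and had 115 in replicate 1 and 117 in replicate 2. Sites 5, 6 and 7 had pooled signals of 117, 90.6 and 73.7, with 48.9, 36.7 and 23.9 in replicate 1 and 73.4, 57.2 and 47.1 in replicate 2. Site 7 had the lowest signal of all 23 sites bar osa site 3 and trx site 3, and its IDR between replicates did not pass. The conservative pooled list also held a peak of signal 81.3, 667 bp past the end of tara, that the larger list did not hold. The nearest thresholded peak outside the window of tara, 1168 bp beyond it, had a signal of 918.

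Alh (FBgn0261238) encodes the fly homologue of AF10, a cofactor of the Dot1 methyltransferase. Site 1 (chr3R:7108898-7109165) had a pooled signal of 536, with 251 in replicate 1 and 277 in replicate 2, in an intron 568 bp upstream of an internal TSS, and was in the ranked list only. Sites 2 and 3 were a close pair at the main promoter, 204 bp apart. Site 2 (chr3R:7124082-7124465, signal 186; 111 in replicate 1 and 70.6 in replicate 2) lay 89 bp upstream of the TSS and was thresholded in both replicates. It was also 274 bp from the TSS of CG10098. Site 3 (chr3R:7124286-7124669, signal 137), 293 bp upstream and 70 bp from the TSS of CG10098, had 84.9 in replicate 1 and 16.9 in replicate 2. It was not in the conservative list and its IDR between the replicates did not pass, so the second peak of the pair rested on replicate 1.

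Every gene also had weaker ranked peaks that did not pass. The number of pooled ranked peaks per gene broadly followed window length, with 8 at Snr1, 10 at mor, 10 at ash2, 18 at ash1, 22 at brm, 24 at Alh, 33 at trx, 43 at osa and 49 at tara. The median signal of those that did not pass was 17.9 at trx, 22.3 at brm, 23.4 at tara, 23.9 at osa and 25.6 at ash2, and the strongest of them reached 36.7 at ash2 and 81.3 at tara. Over all 131853 pooled ranked peaks the median was 20.4. At trx the weakest passing site, site 3 at 65.9, lay above the strongest ranked peak that did not pass, at 62.4. At tara the order in the pooled ranking was the other way, since site 7, which passed there, had 73.7, against 81.3 for the strongest peak that did not. The tara peak of signal 81.3 in the conservative list did pass between the replicates, whereas site 7 did not and was not in that list. Which of the tara peaks passed thus depended on the ranking used. The strong peak of ash1 stood alone, since the strongest ranked peak there that did not pass had 45.9.

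By place, the sites fell into 3 kinds. Of the 13 thresholded sites, 3 lay within 500 bp of a TSS of their own gene (brm site 1 and Alh sites 2 and 3), 4 within 500 bp of a TSS of another gene only (ash1, ash2, Snr1 and osa site 1), and 6 away from any TSS. The 3 sites at their own TSS were each also within 500 bp of a TSS of Arl1 (brm) or CG10098 (Alh). Of these, brm site 1 and Alh site 3 lay nearer to the neighbour's TSS than to their own. Of the 10 sites in the ranked list only, mor site 2 was at its own TSS and 9 were away from any. mor site 2 was also within 500 bp of the TSS of Hel89B. In all, 13 of the 23 sites lay in introns, 9 outside the gene and 1 in a coding exon.

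The replicates put the strongest sites in the same order but differed further down. In each, ash1 site 1, brm site 1 and osa site 1 came at places 1, 2 and 3. Summits matched between replicates were 2 to 100 bp apart, with a median of 36.0 bp. The match took the peak nearest the pooled summit, so short distances follow in part from it. Among the sites that followed, the order did not hold: osa site 2 was place 4 among the 23 in replicate 1 and place 7 in replicate 2, while Alh site 1 was place 7 in replicate 1 and place 4 in replicate 2. The levels of osa site 2, tara site 1, trx site 1 and Alh site 1 therefore have no fixed order. Next, trx site 2 and tara site 2 kept places 8 and 9, but some weaker sites moved further. Alh site 3 was place 13 in replicate 1 and 23 in replicate 2, and tara site 5 was place 19 and 12 in the same order. Of the 13 thresholded sites of the pooled list, 8 were thresholded in both replicates. Among the exceptions, brm site 2, the ash2 peak and Alh site 3 were thresholded in replicate 1 only. The others, osa site 3 and trx site 3, were thresholded in neither.

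The 10 sites in the ranked list only came from mor, trx, tara and Alh, all on 3R, where 7 of the 9 genes lie. Such a site was found at 4 of the 9 genes against 0.530% of protein-coding genes, a share that also rests on how the genes were selected. Of these 10 sites, 9 passed an IDR of 0.01 between the replicates and 7 passed in the ranked lists of both replicates. Their signals, 73.7 to 536, overlapped those of the thresholded sites, 65.9 to 2755. In the whole series, 205 of 4097 passing ranked peaks were not in the larger list, and of the 113 of these on the chromosome arms, 52 were on 3R, 32 on X, 24 on 2L, 3 on 3L and 2 on 2R. The file headers name 1 more input for the thresholded lists than for the ranked lists, of a kind they do not state. Whether that input removed these sites was not tested.

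Strong sites were narrower than weak ones at these genes. All 11 sites of signal 200 or more were narrower than 384 bp, the width of 78.5% of peaks in the larger list, and measured 147 to 380 bp. Among these 11, the strongest, ash1 site 1, was the widest at 380 bp. The weakest of them, tara sites 3 and 4, were the narrowest at 147 and 174 bp. All 12 weaker sites were exactly 384 bp wide.

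The DNA under the sites was rich in A and T. In windows of 100 bp either side of the summit, the median A and T content of the 23 sites was 66.2% (31.8% to 73.1%), against 50.7% in windows centred 500 bp away, and it was above its flank at 21 of 23 sites. The 2 exceptions were osa site 3 (31.8%, flank 72.6%) and tara site 7 (44.3%, flank 63.4%), which are among the weakest sites. All thresholded peaks on the arms had a median of 64.7%, against 56.7% in their flanks, with 74.2% above. Among the 11 sites of signal 200 or more the median was 71.6% (62.7% to 73.1%), all above their flanks. Thresholded peaks of the same signal over the whole list had a median of 67.2%, with 86.6% above, so strong peaks elsewhere also exceeded their flanks for the most part. Since the genes were selected on these peaks, no test was made of their composition. The longest run of A and T in a site's window had a median of 12 bp, and the same median held over the whole list. The longest among the sites, 22 bp, was at brm site 1.

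**Figure D3:**
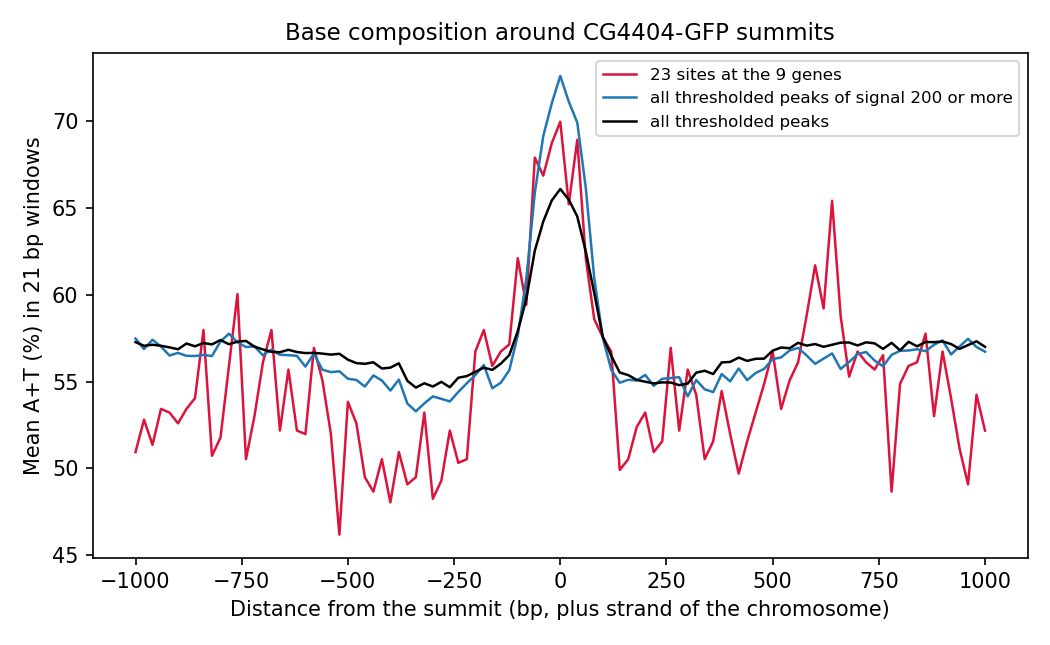
Mean A and T content (%) in steps along the plus strand by distance from the summit (bp), for the 23 sites at the 9 genes, for all thresholded peaks of signal 200 or more and for all thresholded peaks on the arms. All 3 curves peak at the summit; the curve of the 23 sites is uneven because few sites enter it.

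Short words of known factors were counted in the same windows on both strands. TATAAA lay in 10 of the 23 sites, against 34.8% of all thresholded summits and 19.2% of flanks. The sites that held it were brm sites 1 and 2, mor site 2, osa sites 1 and 2, trx sites 1 and 2, tara site 5 and Alh sites 1 and 3, at a TSS and away from one alike. CGATA, a word of the insulator protein BEAF, lay in 8 of 23 sites, against 25.1% of summits and 20.5% of flanks, and was present at ash1 site 1. GATAA lay in 11 sites (37.2% of summits, 32.5% of flanks), the E-box CANNTG in 12 (58.5% and 63.4%), and GAGAG, the word of GAGA factor, in 5 (21.7% and 24.5%), these last being osa site 1, trx site 2, tara site 1, Alh site 2 and the Snr1 peak. The Zelda word CAGGTA lay in 1 site, tara site 2 (4.17% and 4.28%), and the core promoter element Ohler 7 in 2, trx site 3 and Alh site 1 (7.54% and 3.23%). The replication-related element DRE, TATCGATA, which contains CGATA, lay in none of the 23 sites (2.22% and 0.574%), nor did CAGGGCT (2.22% and 0.965%), Ohler 1 (0.417% and 0.104%) or GCNGCNGC (6.78% and 9.86%). The shares of summits are over thresholded peaks only. Among the 13 thresholded sites, CGATA lay in 7, TATAAA in 6, GATAA in 6, CANNTG in 8 and GAGAG in 4. Among the 10 sites in the ranked list only, these words lay in 1, 4, 5, 4 and 1, in the same order. This split was not tested. The counts moved with the window. With 50 bp either side, TATAAA lay in 5 sites, GATAA in 7 and CANNTG in 7, and with 150 bp either side GAGAG lay in 11, Ohler 7 in 5, CAGGTA in 2, GCNGCNGC in 2 and DRE in 1. No word was shared by all the sites. A match of letters is a description and not evidence of a bound factor.

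The other genes of these pathways, a list of 33 named from textbook membership, had a thresholded peak in 17 cases (51.5%), against 28.2% of protein-coding genes, and 8 had one within 500 bp of the gene's own TSS, against 14.2%. Several of the 33 are long genes, but most have windows shorter than that of brm. Among protein-coding genes with windows at least as long as that of brm the share was 53.0%. With windows at least as long as that of Snr1 it was 35.4%. Of the listed genes with windows at least as long as that of brm, all but vtd and E(bx) had a peak, whereas most of the shorter ones had none. The share of the whole list was not compared at matched window length. The median of the strongest signal at these 17 was 186. Of the other Brahma complex genes, 2 of 6 had a peak, Bap55 and Bap60. Of the COMPASS family, which methylates lysine K4, 3 of 10 had one, namely trr, wds and Lpt. Both counts are near the share of 28.2% among protein-coding genes. wds, the gene of the WDR5 homologue, reached 311 (150 in replicate 1 and 159 in replicate 2). Of the 3 genes listed only for the ISWI and NURF remodellers, Iswi, E(bx) and Nurf-38, 0 had a peak. Each gene was listed under 1 heading, Caf1-55 with the partners of Ash1, so this is no count over all NURF subunits.

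Both partners of Ash1 had a strong peak, and each lay at another gene's promoter, as at ash1 itself. A peak of any signal was found at 28.2% of protein-coding genes. The peak counted at Caf1-55, which encodes a histone-binding WD40 protein, had a signal of 1832 (977 in replicate 1 and 855 in replicate 2) and lay within 500 bp of the TSSs of Art3 and mRpS10. The peak counted at MRG15, a chromodomain protein gene, had 620 (338 and 286 in the same order) and lay at the TSSs of Cp190 and CG4338. Both genes of the Dot1 complex had a peak, but the window of gpp is long, at 46420 bp. Among protein-coding genes with windows at least as long as that of brm, 53.0% had a peak. At gpp, the gene of the Dot1 methyltransferase, the strongest peak had 396 (220 in replicate 1 and 166 in replicate 2). At ear the peak was weak, with 91.6, the lowest among the strongest peaks of these genes, and replicate 2 had no thresholded peak there. It lay within 500 bp of the TSSs of ear, CG44040 and CG6276.

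Of the remaining trithorax group genes, 8 of 10 had a peak, all but kto and vtd. These are mostly long genes: all but kto have windows longer than that of brm. Among protein-coding genes with windows at least that long, 53.0% had a peak. The strongest peak was at Trl, the gene of GAGA factor, with 1336 (695 in replicate 1 and 630 in replicate 2), 1524 bp downstream of its TSS. It was followed by mod(mdg4), the gene of a BTB-domain insulator protein, with 657 (410 in replicate 1 and 256 in replicate 2), tna, the gene of an E3 SUMO ligase homologue, with 569 (282 and 287 in the same order), and kis, the gene of a CHD-family remodeller, with 263 (136 and 128). Of the 17 genes, 12 had their strongest peak within 500 bp of the TSS of another annotated gene, which at mod(mdg4) are its own separately annotated precursors.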

How the data were processed

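Peaks came from ChIP-seq of 2 biological replicates. Per the file headers, the authors used the assembly dm6, called peaks per replicate and on pooled replicates, and deposited ranked and thresholded lists. The deposited signal is the peak caller's own value, and the deposited −log10 of the IDR accompanies each ranked peak. No aligner, caller or version is given in the sources used here. The number of peaks limits the precision, since read depth was not used.

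The members and lists were chosen with earlier results of these data known. Coordinates are 1-based. Genes and TSSs came from Ensembl release 115 (BDGP 6.54) and sequence from RefSeq Release 6. A peak was counted at a gene when its summit lay in the gene or within 2000 bp. Each pooled site was matched to the overlapping replicate peak with the nearest summit. All results are descriptions without a test. All members are named, with values for up to 8 of the wider list by signal and for ear, and genes with a TSS within 500 bp. Counts were checked on simulated data in Python 3.11.15, and figures drawn with matplotlib 3.10.9. Other flanks, TSS windows, lists, thresholds and motif windows were tried.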

Additional observations from a re-analysis of the deposited data

How the results depend on the processing

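The number of the 9 genes with a thresholded peak, 8 as reported, was 6 with a gene flank of 500 bp, 7 at an IDR of 0.001 and 9 with ranked peaks added, and the number with a summit near their own TSS, 2, became 3 with ranked peaks added. The count of 13 peaks was 23 with ranked peaks that are in no thresholded list added, a change that follows from how it was made. In the replicates' own lists it was 8 to 11 (8 without replicate 1, 11 without replicate 2), the genes with a peak numbered 7 to 8, those with a summit near a TSS 2 in each, and the share of protein-coding genes was 20.3% to 24.3%, against 28.2% as reported. Over the other alternatives these 4 results stayed within 1.5 times. Of 22 motif alternatives over the 23 sites, 14 did, and the other 8 are given with the motifs. Composition in 50 bp windows (67.3%) and at thresholded sites only (65.7%) was tried after seeing the data. No paired analysis was possible because there is 1 group and no test. Neither a control sample nor read depth was used, so signals have no error beyond the pair of replicates.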
